A study of Sus scrofa with 10 samples.

Results

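Rab GTPases and the coat, tether, SNARE and sorting proteins that work with them move membrane vesicles between the compartments of a cell. Their transcripts were followed in aortic valve leaflets of swine on Affymetrix porcine arrays, where a group of short probes called a probe set reads each transcript. A gene was counted as a member when a probe set with exactly 1 symbol in the array annotation carried a symbol starting with RAB and a digit, ARF and a digit, SNX, VPS, VAMP, STX and a digit, SEC and a digit, or COPA, COPB, COPE, COPG or COPZ. This gave 107 of the 6765 genes with such a probe set, read by 164 probe sets, and no COPE gene was among them. Each gene was represented by its brightest probe set over all arrays. The probe sets annotated to STX12 and STX7 together, or to RAB6A with a pair of gene IDs, carried several symbols and were left out by the rule. VPS72 entered by its name, although it encodes a subunit of chromatin remodelling complexes. All animals were female and ate standard chow, and leaflets went into RNAlater within an hour of death. There were 3 arrays from juvenile wild-type (WT) Rapacz Wisconsin Miniature Swine, labelled RFH -/- and aged 3 months, 3 from juvenile Rapacz familial hypercholesterolemic (RFH) swine of the same age, and 4 from adult RFH swine aged 2 years. RFH swine carry an inherited form of high blood cholesterol. The labels do not say whether each array came from a separate animal, so the p-values measure the spread between these samples.

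Newly made secretory and membrane proteins enter the endoplasmic reticulum (ER) through the SEC61 channel and leave it in vesicles coated by COPII, while COPI-coated vesicles carry escaped proteins and membrane back from the Golgi. Rab and ARF GTPases switch on and off to mark each membrane, and SNARE proteins, which include the syntaxins (STX) and VAMPs, drive the fusion itself. Sorting nexins (SNX), the retromer, the HOPS and CORVET tethers, the ESCRT proteins and the GARP complex sort and recycle cargo among endosomes, lysosomes and the Golgi. In a valve leaflet the interstitial cells use the early steps of this route to export collagen and other matrix proteins.

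Values are log2 levels as deposited, changes are differences of group means on that scale with limma's standard error (SE), and rose or fell is written where the p adjusted over all 23999 probe sets was under 0.05. The leaflet label was checked against markers. The 9 measured interstitial and fibroblast genes averaged 12.23 to 12.31 in juvenile WT, 12.14 to 12.22 in juvenile RFH and 11.57 to 12 in adult RFH arrays, and VIM and DCN were near the top of the scale throughout. The 10 macrophage genes averaged 9.48 to 9.63, 9.87 to 9.90 and 10.30 to 10.82, and the 10 endothelial genes 8.15 to 8.51, 8.53 to 8.84 and 8.67 to 9.58 in the same order. Juvenile RFH replicate 2 held cardiac muscle transcripts, with a mean of 8.65 over 12 genes, while juvenile RFH replicates 1 and 3 had 5.55 and 5.90. The array's poly-A spike controls had a mean of 7.12 in adult and 6.32 in juvenile RFH arrays, a difference of 0.80 (exact permutation test, two-sided, p = 0.0286, the lowest value possible with 4 and 3 arrays), and the labels give no batch. They read 6.48 to 6.60 in juvenile WT and 6.29 to 6.34 in juvenile RFH arrays (exact permutation p = 0.1, the lowest possible there). The 3' minus 5' signal of the ef1a control was 0.89 to 1.12 and 1.21 to 1.70 in these groups (exact permutation p = 0.1), while actin and gapdh overlapped. Averaged over these controls it was 1.75, 2.25, 2.84 and 2.12 in adult replicates 1 to 4. In such bulk samples, fewer cells of a type and less RNA per cell cannot be told apart.

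The question of the first comparison was how adult RFH leaflets differ from juvenile RFH leaflets, and age and the course of the disease cannot be told apart in it. The traffic genes moved in both directions. Of the 107 members 10 rose, 7 fell and 90 did not pass. The members called made up 15.9%, where 19.3% of all 6765 genes were called. By direction 9.35% of members rose against 11.4% of all genes, and 6.54% fell against 7.85%, so the shares lay near those of the whole array. The median change was 0.01 over the members and 0.02 over all genes, and 50.5% of members and 52.6% of all genes had a positive change. The differences were small, with STX11 the only member that changed at least 2-fold in this comparison, and the called rises other than STX11 ran from 0.38 to 0.84 and the falls from 0.26 to 0.55 on the log2 scale. The groups did not overlap in 35 members, 32.7% against 29.9% of all genes.

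**Figure D1:**
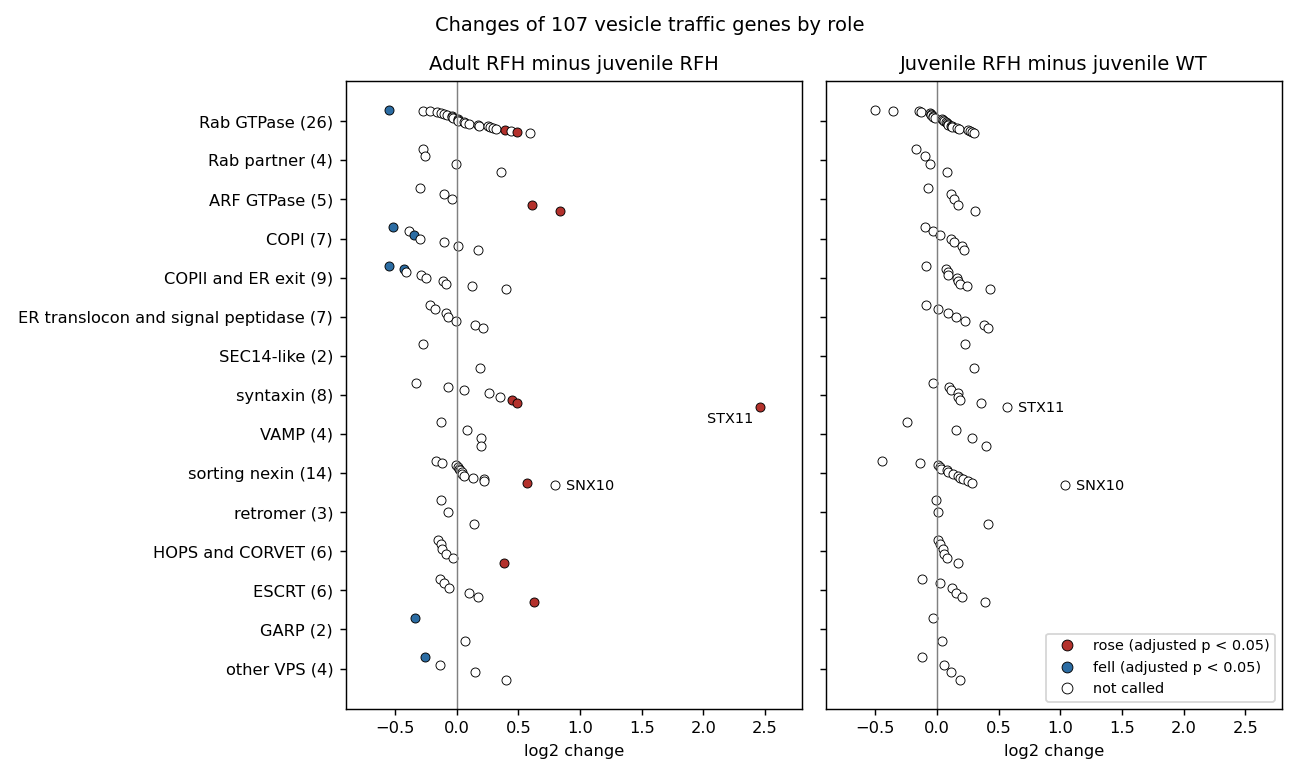
Each point is 1 of the 107 genes, placed by its log2 change (x axis) and its role (y axis, with the number of genes), for adult minus juvenile RFH (left) and juvenile RFH minus juvenile WT (right). Filled points were called by limma at an adjusted p under 0.05. STX11 stands far to the right in the left panel at 2.46, the coat rows lie mostly left of 0 there, and the right panel has no filled point.

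Of these 17 calls, 6 held whichever single array was left out, those of STX11, ARF2, ARF6, VPS36, SNX30 and COPG1. Leaving out juvenile RFH replicate 1 kept only these 6 calls, without juvenile RFH replicate 3 there were 10, and with only the 2 RFH groups in the fit 9 of the 17 remained. Of all genes 10.9%, 11.1% and 11.2% were called in these fits, where the full fit called 19.3%. None of the 17 changed direction in this comparison under any alternative tried.

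**Figure D2:**
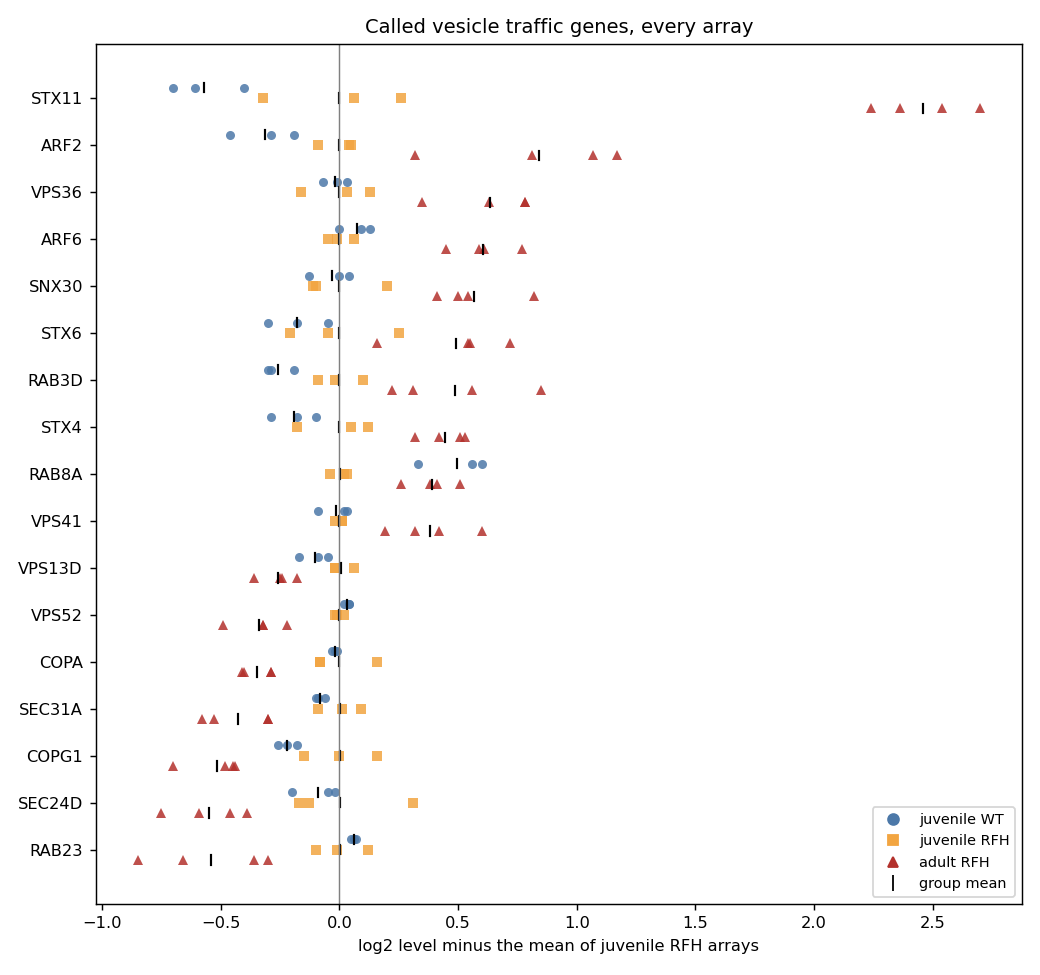
Log2 level of each array minus the mean of the juvenile RFH arrays (x axis) for the 17 called members (y axis), ordered by their change. Circles are juvenile WT, squares juvenile RFH and triangles adult RFH arrays, and bars are group means. Adult and juvenile RFH arrays do not overlap in 16 of the 17 genes, STX6 being the exception, and in RAB8A the juvenile WT arrays lie at 7.43 to 7.70, level with the adult ones.

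Of 8 syntaxins 3 rose and none fell, 37.5% risen against 11.4% of all genes, with a median change of 0.30 against 0.02. The changes of STX10 and STX18 were negative. STX11, a syntaxin best known from cytotoxic lymphocytes and other immune cells, where its loss causes a familial form of haemophagocytic lymphohistiocytosis, had the largest change of any member. Its level was 7.69, 7.78 and 7.99 in juvenile WT, 8.07, 8.45 and 8.65 in juvenile RFH, and 10.93, 11.09, 10.63 and 10.75 in adult RFH arrays. Every adult array lay above every juvenile one, and the 3 groups did not overlap. The adult minus juvenile RFH change was 2.46 ± 0.16 (SE, adjusted p = 1e-05), which is 5.51-fold.

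STX4, the plasma membrane syntaxin of regulated exocytosis and glucose transporter delivery, read 8.74, 9.04 and 8.97 in juvenile RFH and 9.34, 9.43, 9.45 and 9.24 in adult RFH arrays. It rose by 0.45 ± 0.10 (SE, adjusted p = 0.0137), with no overlap. The call ended without juvenile RFH replicate 1 (change 0.36, adjusted p = 0.06). A second probe set for STX4 gave 0.23 ± 0.16 (adjusted p = 0.362). STX6, a syntaxin of the trans-Golgi network and endosomes, read 9.49, 9.95 and 9.65 in juvenile RFH and 10.42, 10.24, 9.86 and 10.25 in adult RFH arrays, and adult replicate 3 lay inside the juvenile range. It rose by 0.49 ± 0.15 (SE, adjusted p = 0.0447), a call that held only without juvenile RFH replicate 2 or adult RFH replicate 3, with adjusted p-values up to 0.168 when 1 of the other arrays was left out.

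The other syntaxins did not pass. STX10, another trans-Golgi syntaxin, had a change of -0.33 ± 0.10 (SE, adjusted p = 0.0532) with every adult array, at 9.32 to 9.65, below every juvenile RFH array, at 9.73 to 9.89. Its second probe set was called lower, by -0.37 ± 0.11 (adjusted p = 0.0426). In the brightest STX10 probe set the juvenile WT arrays, at 9.30 to 9.50, overlapped the adult ones. STX8, an endosomal syntaxin, had 0.26 ± 0.09 (adjusted p = 0.0643) and STX16 0.35 ± 0.12 (adjusted p = 0.0735), while the Golgi and ER syntaxins STX5 and STX18 had 0.06 and -0.07. None of the 4 VAMPs passed. The VAMPs, SNAREs carried on the vesicle side, had changes of -0.13 (VAMP2) to 0.20 (VAMP7 and VAMP8), and VAMP8 had -0.05 without adult arrays 1 and 2 and 0.44 (adjusted p = 0.0105) without arrays 3 and 4.

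STX11 was read beside the marker lists. Adult replicates 1 and 2 had the highest macrophage means, 10.72 and 10.82, against 10.32 and 10.30 in replicates 3 and 4. They also had the highest endothelial means, 9.49 and 9.58 against 8.67 and 9.33. STX11 had the same order of pairs within a narrow range, 10.93 and 11.09 against 10.63 and 10.75. The change was 2.30 (adjusted p = 0.00011) without adult arrays 1 and 2 and 2.62 (adjusted p = 4.06e-05) without arrays 3 and 4, so it was nearly as large in either pair. Of the 10 macrophage genes 5 rose and none fell in this comparison, with a median of 0.59, and of the 10 endothelial genes 3 rose and 1 fell, with a median of 0.55. The 7 measured lymphocyte genes, with none called, averaged 5.28 to 6.56 in adult and 5.35 to 5.48 in juvenile RFH arrays, and all 7 lay below the median of all probe sets. Of the 6 adipocyte genes 2 rose, with a median of 0.61. FABP4, LPL and PPARG had 3.83, 1.17 and 1.11, while ADIPOQ, LEP and LIPE had 0.12, -0.13 and -0.24. Of the 4 neutrophil genes 1 rose, with a median of 0.43 and S100A9 at 2.74. The part of these cell types in the STX11 change was not tested.

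SNX10, a sorting nexin needed by osteoclasts for resorption, is named here after its values were seen. Its level was 8.03, 8.13 and 8.53 in juvenile WT, 9.03, 9.11 and 9.66 in juvenile RFH, and 10.74, 10.95, 9.41 and 9.16 in adult RFH replicates 1 to 4. The macrophage, endothelial, adipocyte and lymphocyte lists were each higher in adult arrays 1 and 2 than in 3 and 4. The endothelial list had 9.49 and 9.58 against 8.67 and 9.33, and the adipocyte list 6.96 and 6.92 against 6.18 and 6.01. Within the adipocyte list the split lay mostly in FABP4, PPARG and LPL. ADIPOQ read 4.11 to 4.36, LEP 7.25 to 7.34 and LIPE 5.86 to 6.18 over the adult arrays. The part of these cells in the SNX10 values was not tested. Adult arrays 3 and 4 lay within the juvenile RFH range and arrays 1 and 2 more than a log2 unit above it. The change of 0.80 ± 0.40 (SE, adjusted p = 0.204) did not pass. It was 0.02 (adjusted p = 0.963) without adult arrays 1 and 2 and 1.58 (adjusted p = 0.000921) without arrays 3 and 4.

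**Figure D3:**
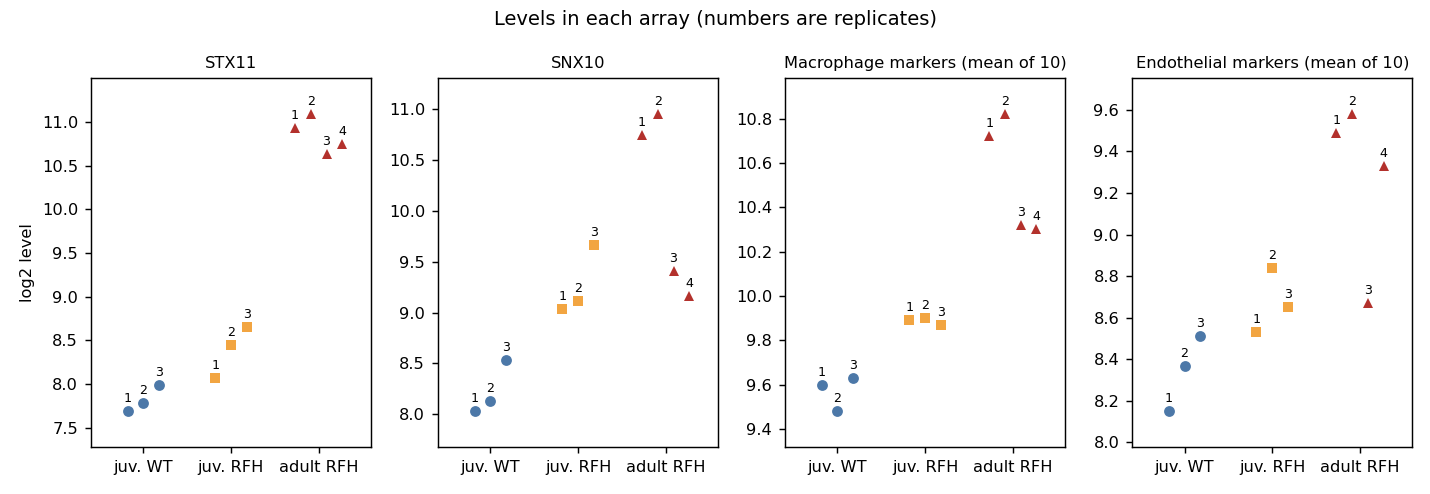
Log2 level (y axis, with its own range in each panel) in every array for STX11, SNX10, the mean of 10 macrophage genes and the mean of 10 endothelial genes, by group (x axis), with replicate numbers beside the points. All 4 adult arrays are high in STX11, while in SNX10 only adult replicates 1 and 2 lie above the juvenile RFH arrays. That pair has the highest macrophage and the highest endothelial means.

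ARF GTPases recruit coats and remodel the cortex under the plasma membrane. Of 5 members 2 rose and none fell, 40% called against 19.3% of all genes. ARF6, which works at the plasma membrane in endocytic recycling and actin remodelling, read 10.40, 10.36 and 10.47 in juvenile RFH and 11, 11.18, 10.86 and 11.02 in adult RFH arrays. The juvenile WT arrays, at 10.41 to 10.54, lay with the juvenile RFH arrays and below all adult ones. ARF6 rose by 0.61 ± 0.09 (SE, adjusted p = 0.00228). ARF2, a Golgi-type ARF, read 10.76, 10.89 and 10.90 in juvenile RFH and 11.92, 11.66, 11.17 and 12.02 in adult RFH arrays. It rose by 0.84 ± 0.18 (SE, adjusted p = 0.0102), and its second probe set rose by 0.76 ± 0.21 (adjusted p = 0.0349). The call was lost without adult arrays 1 and 2 together (change 0.74, adjusted p = 0.0522). The Golgi ARFs ARF1 and ARF4 had changes of -0.04 and -0.10, and ARF5 of -0.30 (adjusted p = 0.183).

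Among 26 Rab GTPases there were 2 rises and 1 fall, 11.5% called against 19.3% of all genes, and the median change was 0.04. RAB23, known as a negative regulator of Hedgehog signalling linked to the primary cilium, read 9.91, 9.69 and 9.78 in juvenile RFH and 9.13, 8.94, 9.49 and 9.43 in adult RFH arrays. It fell by 0.55 ± 0.13 (SE, adjusted p = 0.0181), and the juvenile WT arrays, at 9.84 to 9.86, stood above all adult arrays. Leaving out juvenile RFH replicate 1 (adjusted p = 0.0766) or 3 (adjusted p = 0.0578) ended the call, and the other 2 RAB23 probe sets gave -0.15 and -0.18, neither called. RAB8A, which directs vesicles from the trans-Golgi to the plasma membrane and cilium, read 7.66, 7.43 and 7.70 in juvenile WT, 7.13, 7.06 and 7.12 in juvenile RFH and 7.48, 7.51, 7.61 and 7.36 in adult RFH arrays. In this probe set the juvenile RFH arrays were the low group, and the adult arrays lay in the range of the WT ones or just under it. RAB8A rose by 0.39 ± 0.10 (SE, adjusted p = 0.0196) from juvenile to adult RFH. Its second probe set rose by 0.41 ± 0.12 (adjusted p = 0.0411). Leaving out juvenile RFH replicate 1, 2 or 3 ended the call, with adjusted p = 0.0565, 0.064 and 0.0584.

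RAB3D, a Rab of secretory granules, read 7.83, 8.02 and 7.90 in juvenile RFH and 8.48, 8.77, 8.14 and 8.23 in adult RFH arrays. It rose by 0.49 ± 0.14 (SE, adjusted p = 0.0375), but its other 2 probe sets gave -0.09 and -0.14, so the probe sets disagree in sign. The call held only without adult RFH replicate 3 or 4, and the other 8 single omissions gave adjusted p-values of 0.0527 to 0.127. The mean of its 3 probe sets changed by 0.09 (adjusted p = 0.5).

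Several Rabs of endosomes and lysosomes came close to the threshold without passing. RAB7A, the Rab of late endosomes and lysosomes, had 0.27 ± 0.09 (SE, adjusted p = 0.0556), with adult arrays at 10.95 to 11.16 above juvenile RFH arrays at 10.70 to 10.84. RAB11A, of recycling endosomes, read 10.51, 10.95 and 10.75 in juvenile RFH and 11.69, 11.58, 10.70 and 11.34 in adult RFH arrays, a change of 0.59 ± 0.22 (adjusted p = 0.0859) that overlapped through adult replicate 3. It was 0.29 (adjusted p = 0.403) without adult arrays 1 and 2 and 0.90 (adjusted p = 0.00281) without arrays 3 and 4. Its relative RAB11B changed by -0.08 ± 0.09. Dimmer probe sets gave 0.26 ± 0.21 (adjusted p = 0.444) for RAB11A and 0.32 ± 0.16 (adjusted p = 0.212) for RAB11B, without that contrast. RAB32, a Rab of lysosome-related organelles, had 0.32 ± 0.12 (adjusted p = 0.0902), and its dimmer probe set was called higher at 0.52 ± 0.15 (adjusted p = 0.0349). RAB2A, which acts between ER and Golgi, had -0.27 ± 0.10 (adjusted p = 0.0894), but its dimmer probe set gave 0.53 ± 0.21 (adjusted p = 0.104), the opposite sign. RAB1A, RAB10, RAB13, RAB14, RAB18, RAB24, RAB27B, RAB35, RAB40C, RAB4B and RAB26 all had changes between -0.13 and 0.10. A dimmer RAB10 probe set was called higher at 0.46 ± 0.12 (adjusted p = 0.0297) where the brightest had -0.04 ± 0.12. The paired subunits of the RAB3 GTPase-activating complex, RAB3GAP1 and RAB3GAP2, had -0.27 ± 0.09 (adjusted p = 0.0662) and -0.26 ± 0.11 (adjusted p = 0.129), and neither of the other Rab partners, RAB3IP and RAB3IL1, passed.

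Of the 16 genes for the COPI coat and for COPII and ER exit, 4 fell, 25% against 7.85% of all genes, none rose and 12 had a negative change, with a median of -0.27 against 0.02 over all genes. By their brightest probe sets, in 9 of the 16 every adult array lay below every juvenile RFH array, 56.2% against 13.3% of all genes. This is a count in lists whose members were chosen with earlier results known.

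COPG1, the gamma subunit through which COPI holds cargo adaptors, read 10.64, 10.48 and 10.33 in juvenile RFH and 9.78, 10, 10.03 and 10.04 in adult RFH arrays. It fell by 0.52 ± 0.10 (SE, adjusted p = 0.00723). The juvenile WT arrays lay between, at 10.22 to 10.30. COPA, the alpha subunit that recognises retrieval signals, read 11.91, 11.67 and 11.67 in juvenile RFH and 11.35, 11.34, 11.46 and 11.46 in adult RFH arrays, and fell by 0.35 ± 0.09 (SE, adjusted p = 0.0212). The COPA call ended without juvenile RFH replicate 1 (change -0.27, adjusted p = 0.0876). The beta subunits COPB1 and COPB2 had -0.30 ± 0.11 (adjusted p = 0.0839) and -0.39 ± 0.13 (adjusted p = 0.0681), both without overlap. So in 4 of the 7 COPI genes, by their brightest probe sets, all adult arrays lay below all juvenile RFH arrays. A dimmer COPB1 probe set gave 0.28 ± 0.19 (adjusted p = 0.335), with overlap. COPG2, COPZ1 and COPZ2 had -0.10, 0.17 and 0.01, none called.

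SEC31A, the outer cage of COPII, read 12.59, 12.51 and 12.41 in juvenile RFH and 11.92, 11.97, 12.20 and 12.20 in adult RFH arrays. It fell by 0.43 ± 0.10 (SE, adjusted p = 0.0139), and its other 2 probe sets gave -0.20 and -0.55, neither called. Without juvenile RFH replicate 1 the call ended (adjusted p = 0.0612). SEC24D, a cargo-binding COPII subunit whose loss impairs collagen export and skeletal growth, read 10.65, 10.17 and 10.21 in juvenile RFH and 9.88, 9.75, 9.59 and 9.95 in adult RFH arrays. It fell by 0.55 ± 0.13 (SE, adjusted p = 0.0195), with juvenile RFH replicate 1 the highest array. Without that array the change was -0.39 and the call ended (adjusted p = 0.0724). SEC23IP and SEC13 had -0.29 ± 0.11 (adjusted p = 0.104) and -0.41 ± 0.18 (adjusted p = 0.15), and SEC22C, SEC31B and SEC24C lay between -0.11 and 0.12.

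Of the 9 interstitial and fibroblast marker genes 3 fell and none rose, with a median of -0.21, and their mean was lower in adult replicates 1 and 2, at 11.71 and 11.57, than in 3 and 4, at 11.96 and 12. SEC31A, COPA, COPG1, COPB2, SEC23A, SEC31B and COPZ2 were also lower in the first pair. COPB2 and SEC23IP had smaller changes without arrays 1 and 2 (-0.21 and -0.19) than without arrays 3 and 4 (-0.58 and -0.39). SEC24D did not follow that split. COPB1 and SEC13 had larger changes without arrays 1 and 2 (-0.40 and -0.63) than without arrays 3 and 4 (-0.21 and -0.19). In both, adult replicate 3 was the lowest adult array, at 11.07 and 8.45. The other adult arrays read 11.34 to 11.48 for COPB1 and 9.02 to 9.37 for SEC13. Without adult arrays 1 and 2 the changes were -0.30 for SEC31A (adjusted p = 0.0545), -0.29 for COPA (adjusted p = 0.0848), -0.57 for SEC24D (adjusted p = 0.0562) and -0.45 for COPG1 (adjusted p = 0.0257), so the direction held in each, and of these 4 calls that of COPG1 remained. The part of the interstitial cells in these falls was not tested.

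**Figure D4:**
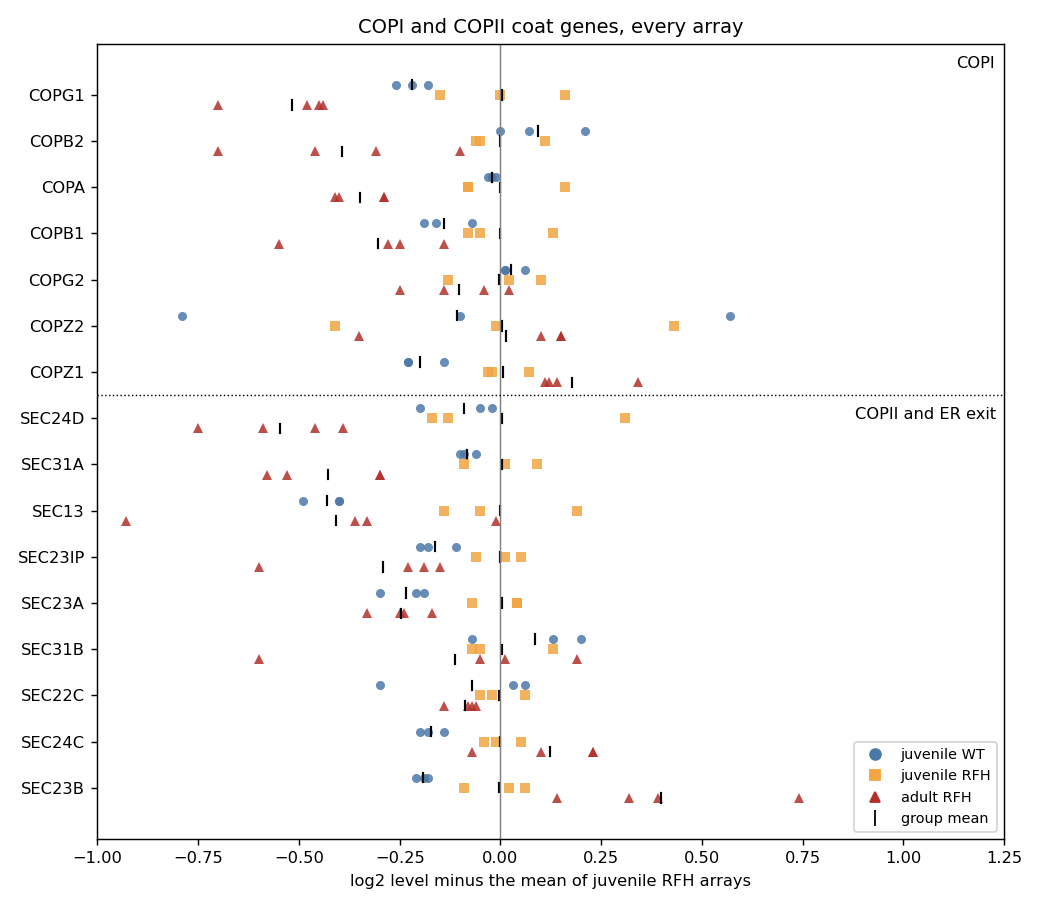
Log2 level of each array minus the mean of the juvenile RFH arrays (x axis) for 7 COPI genes (above the dotted line) and 9 COPII and ER exit genes (below it). Circles are juvenile WT, squares juvenile RFH and triangles adult RFH arrays, and bars are group means. Adult arrays lie left of all juvenile RFH arrays in 9 genes and right of them in COPZ1 and SEC23B.

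Close relatives were set side by side. SEC23A and SEC23B encode alternative forms of the COPII subunit that stimulates the SAR1 GTPase. SEC23A read 10.75, 10.64 and 10.75 in juvenile RFH and 10.46, 10.38, 10.47 and 10.54 in adult RFH arrays, and SEC23B read 9.64, 9.49 and 9.60 and then 9.97, 10.32, 9.72 and 9.90. By these brightest probe sets SEC23A was lower and SEC23B higher in every adult array. Their changes were -0.25 ± 0.08 (SE, adjusted p = 0.0576) and 0.40 ± 0.13 (SE, adjusted p = 0.0536), neither called alone. The change of SEC23A was 0.65 below that of SEC23B (two-sided exact permutation p = 0.0286 over arrays). A dimmer SEC23A probe set gave -0.18 ± 0.13 (adjusted p = 0.397), with overlap. SEC24C and SEC24D differed by 0.67 in their changes, 0.12 against -0.55 (exact permutation p = 0.0286), and the lipid-transfer proteins of membrane contact sites VPS13C and VPS13D by 0.41, 0.15 against -0.26 (exact permutation p = 0.0286). These were 3 of 16 pairs of relatives, picked after the data were seen. No lower exact p is possible with 4 and 3 arrays, and with adjustment over the 16 pairs it was 0.152 for each, so none passed. The other coat pairs, COPG1 with COPG2, SEC31A with SEC31B and COPZ1 with COPZ2, had exact permutation p-values of 0.0857, 0.114 and 0.657.

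Of the 7 genes of the ER entry channel and of signal peptidase none passed, and 5 had a negative change, with a median of -0.07. SEC61A1, the pore of the channel, had -0.07 ± 0.10 (SE), SEC61B -0.01 ± 0.13 and SEC61G 0.21 ± 0.15, and the largest change was that of the signal peptidase catalytic subunit SEC11A, -0.22 ± 0.10 (adjusted p = 0.14), which was called at -0.30 after quantile normalization (adjusted p = 0.0437). SEC14L1 and SEC14L2, relatives of a yeast lipid-transfer protein, had 0.19 and -0.27, neither called.

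SNX30, a sorting nexin of endosomal recycling, read 6.64, 6.95 and 6.65 in juvenile RFH and 7.25, 7.57, 7.16 and 7.29 in adult RFH arrays, and rose by 0.57 ± 0.12 (SE, adjusted p = 0.0102). Its mean over arrays lay below the median of all probe sets, as did those of 13 other members. It was the only one of 14 sorting nexins called here, and the group's median was 0.04. SNX1, SNX3, SNX5, SNX11, SNX14, SNX17 and SNX24 had changes between -0.01 and 0.06, but a dimmer SNX14 probe set gave -0.59 ± 0.20 (adjusted p = 0.0642).

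VPS36, an ESCRT-II subunit that binds ubiquitinated cargo on endosomes, read 8.04, 8.14 and 7.85 in juvenile RFH and 8.79, 8.79, 8.36 and 8.64 in adult RFH arrays. It rose by 0.63 ± 0.12 (SE, adjusted p = 0.00612), while VPS25, of the same complex, had -0.10 ± 0.09 (adjusted p = 0.479). The other ESCRT members VPS28, VPS37B, VPS37D and VPS4A had changes of -0.14 to 0.17. VPS41, the HOPS subunit that binds RAB7-marked membranes, read 9.52, 9.55 and 9.55 in juvenile RFH and 9.96, 9.73, 9.86 and 10.14 in adult RFH arrays. It rose by 0.38 ± 0.10 (SE, adjusted p = 0.0285), and the other 5 HOPS and CORVET genes had changes of -0.15 to -0.03, none called. The VPS41 call was lost when juvenile RFH replicate 1, 2 or 3 was left out (adjusted p = 0.089, 0.0691 and 0.0816), and likewise adult RFH replicate 1 (adjusted p = 0.0552).

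VPS52, a subunit of the GARP tether that returns vesicles to the trans-Golgi, fell. It read 9.48, 9.49 and 9.52 in juvenile RFH and 9.01, 9.18, 9.18 and 9.28 in adult RFH arrays, a fall by 0.34 ± 0.08 (SE, adjusted p = 0.0211). Its other 2 probe sets gave -0.31 and -0.21, neither called, and it was no longer called when juvenile RFH replicate 1, 2 or 3 was left out (adjusted p = 0.059, 0.0568 and 0.0735). VPS13D read 8.61, 8.53 and 8.53 in juvenile RFH and 8.19, 8.37, 8.31 and 8.30 in adult RFH arrays and fell by 0.26 ± 0.08 (SE, adjusted p = 0.0482). That call held only without adult RFH replicate 2, with adjusted p-values of 0.054 to 0.149 when any other array was left out. VPS72 had 0.40 ± 0.14 (adjusted p = 0.0734), but its dimmer probe set gave -0.53 ± 0.23 (adjusted p = 0.143). Of the retromer, VPS26A, VPS26B and VPS29 had 0.14, -0.13 and -0.07, but a dimmer VPS26A probe set, at 8.34 to 8.53 in juvenile RFH and 8.76 to 9.34 in adult RFH arrays, was called higher by 0.67 ± 0.13 (adjusted p = 0.00612).

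In all, 43 members had several probe sets, and the 57 other probe sets had the sign of the brightest in 38 cases. Of the 11 other probe sets of called members 9 shared the sign, 2 of them called, and none was called the opposite way. A dimmer probe set alone was called in RAB10, RAB32, STX10 and VPS26A.

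Other genes of the route were read from a list of vesicle traffic genes outside the naming rule. Of its 140 measured genes 10 rose and 13 fell, 16.4% called against 19.3% of all genes. RIN3, an exchange factor for RAB5-type GTPases, read 8.13, 8.22 and 7.97 in juvenile RFH and 9.75, 10.07, 9.54 and 9.28 in adult RFH arrays, and rose by 1.55 ± 0.16 (SE, adjusted p = 0.000232). EEA1, the RAB5 effector that tethers early endosomes, rose by 0.62 ± 0.11 (adjusted p = 0.00518). The Golgi SNARE GOSR1 rose by 0.61 ± 0.12 (adjusted p = 0.0064), the ESCRT-III gene CHMP2A by 0.45 ± 0.09 (adjusted p = 0.00647) and the cargo receptor family gene TMED5 by 0.74 ± 0.15 (adjusted p = 0.00793).

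KDELR3, a receptor that returns ER proteins in COPI vesicles, read 11.74, 11.63 and 11.70 in juvenile RFH and 11.18, 10.75, 11.16 and 11.09 in adult RFH arrays. It fell by 0.65 ± 0.12 (SE, adjusted p = 0.00509). GORASP2, a Golgi stacking protein, fell by 0.45 ± 0.08 (adjusted p = 0.00523), the ARF exchange factor ARFGEF2 by 0.56 ± 0.11 (adjusted p = 0.00656) and the Golgi SNARE BET1L by 0.42 ± 0.09 (adjusted p = 0.00986). EXOC8, of the exocyst tether at the plasma membrane, fell by 0.55 ± 0.09 (adjusted p = 0.00356).

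The second comparison asked how juvenile RFH leaflets differ from juvenile WT leaflets. It shares the juvenile RFH arrays with the first, so a high or low juvenile RFH array enters both with opposite sign. By limma none of the 107 members passed, where 0.133% of all genes, 9 of 6765, did, 0.0887% higher and 0.0443% lower. At an unadjusted p under 0.05 there were 15 members, 12 higher and 3 lower in RFH, 14% against 15.1% of all genes. Fits of only these 2 groups called 7 members, RAB8A, SEC11C, SNX10, SNX24, VAMP8, VPS26B and VPS28, where 4.82% of all genes were called. Fits with array weights called 6, RAB8A, SNX22, SNX24, STX11, VPS26B and VPS28, where 5.87% of all genes were called.

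The small differences leaned upward in RFH, in the members and over the whole array. Of the members 81 had a positive and 26 a negative change, with a median of 0.09, beside 65.6% positive and a median of 0.07 over all genes. The groups did not overlap in 40.2% of members and 35.8% of all genes. All RFH arrays lay above all WT arrays in 38 members and below them in 5, 35.5% and 4.67%, against 26.3% and 9.53% of all genes.

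RAB8A had the smallest p of the members (change -0.50 ± 0.10 SE, adjusted p = 0.101 by limma), from the arrays given above. Its second probe set gave 0.09 ± 0.13 (adjusted p = 0.826), so the probe sets disagree in this comparison while both rose from juvenile to adult RFH. VPS26B, a retromer subunit that captures cargo on endosomes, read 9.57, 9.63 and 9.72 in juvenile WT and 9.99, 10.10 and 10.06 in juvenile RFH arrays, without overlap, a change of 0.41 ± 0.10 (SE, adjusted p = 0.137). A dimmer VPS26B probe set gave 0.03 ± 0.10 (adjusted p = 0.946), with overlap, and VPS26A had -0.01 ± 0.12. SNX24 read 9.85, 9.98 and 9.69 in juvenile WT and 9.35, 9.41 and 9.42 in juvenile RFH arrays, a change of -0.45 ± 0.13 (adjusted p = 0.192), and stayed at 9.25 to 9.67 in adults. The ESCRT-I gene VPS28 had 0.39 ± 0.12 (adjusted p = 0.221), with WT arrays at 9.28 to 9.32 and RFH arrays at 9.58 to 9.76. STX10 had 0.36 ± 0.11 (adjusted p = 0.213) and its second probe set 0.54 ± 0.12 (adjusted p = 0.112), both without overlap.

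STX11, SNX10 and VAMP8 did not pass in this comparison. STX11 had a change of 0.57 ± 0.17 (SE, adjusted p = 0.197) and SNX10 one of 1.04 ± 0.43 (adjusted p = 0.351), the largest of the members in this comparison. VAMP8, an endosomal and granule SNARE, read 11.24, 11.20 and 11.25 in juvenile WT and 11.57, 11.71 and 11.59 in juvenile RFH arrays, a change of 0.40 ± 0.17 (adjusted p = 0.352). The macrophage list moved the same way, with a median of 0.43 and none of its 10 genes called. The endothelial list had a median of 0.30 and the 3 measured erythroid genes one of 1.61, with HBB at -0.22 and none called. From juvenile to adult RFH 2 of these erythroid genes fell. The lymphocyte and neutrophil medians were each 0.19 between the juvenile groups, and the interstitial one was -0.05. The part of these cell types in the differences was not tested. Without juvenile RFH replicate 2, which held cardiac muscle transcripts, the changes were 0.54 for STX11 and 1.11 for SNX10, and no member was called.

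Of the 16 coat genes 13 had a positive change, with a median of 0.12, and none passed. SEC13, a COPII cage subunit, read 8.98, 8.89 and 8.98 in juvenile WT, 9.57, 9.33 and 9.24 in juvenile RFH and 9.37, 9.02, 8.45 and 9.05 in adult RFH arrays, with a change of 0.43 ± 0.19 (SE, adjusted p = 0.392). SEC23A had 0.24 ± 0.09 (adjusted p = 0.295), and its adult arrays, at 10.38 to 10.54, lay with the WT arrays, at 10.41 to 10.52. A dimmer SEC23A probe set gave -0.05 ± 0.14 (adjusted p = 0.931). COPG1 had 0.22 ± 0.11 (adjusted p = 0.426), COPA 0.02 ± 0.09 and SEC31A 0.09 ± 0.10. Signal peptidase and channel genes SEC11C and SEC61B had 0.41 ± 0.20 (adjusted p = 0.436) and 0.38 ± 0.14 (adjusted p = 0.308). None of the 140 other traffic genes passed either, with 29 at an unadjusted p under 0.05, 20.7% against 15.1% of all genes. EEA1, at 7.39, 7.43 and 7.08 in juvenile WT and 6.62, 6.85 and 6.62 in juvenile RFH arrays, had -0.61 (adjusted p = 0.0965), and its adult arrays read 7.20 to 7.43.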

How the data were processed

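Total RNA of 10 leaflet samples was labelled with biotin and hybridised to porcine arrays. The authors deposited 1 log2 value for each probe set on each array, a unit read from the values. R 2.15.2 is named in the submitters' processing notes, while how background was corrected and probes were normalized and summarised is not given in the sources used here. Medians of the arrays ran from 6.96 to 7.03. With 3 or 4 arrays in a group, their number limits the precision. After removal of 124 control probe sets, 23999 remained. Gene names came from the array annotation, and 106 of 107 members' gene IDs were in the RefSeq gene table.

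Group means were fitted to all 10 arrays with limma 3.58.1 in R 4.3.3 (eBayes without trend, 7 residual and 3.57 prior degrees of freedom), two-sided, and Benjamini-Hochberg adjusted over all probe sets. Single values per array were compared with exact permutation tests over arrays. The fit was tested on simulated data. The members, the role groups, the marker lists and the list of other traffic genes were chosen with earlier results of these data known. Values in every array were given for called members. For role groups without one from juvenile to adult RFH, the member with the smallest p was named. Between the juvenile groups, where no member was called, only some of the smallest-p members were named with values. Up to 5 called other traffic genes per direction were named. Same-numbered arrays of different groups did not deviate together (correlations of deviations -0.16 to 0.19), so the numbers were not used as pairs. No sequences are shown. The alternatives were quantile normalization, median centring, cyclic loess, leaving out dim probe sets, only the groups compared, a trended robust prior, array weights, a block for replicate number, a floor of 4, a 3' to 5' covariate, 1 probe set per gene, averaged probe sets of a gene, a fold threshold of 2 and each array left out. Leaving out adult arrays in pairs was added after the data were seen.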

Additional observations from a re-analysis of the deposited data

Results flagged for a closer look

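Among the 4 adult RFH arrays, 1 array stood apart from the others by Dixon's criterion in 4 of 41 named genes, and chance gives about 1 in 20 groups. COPG1 read 9.78 in adult RFH replicate 1 and 10 to 10.04 in the others, and its fall held without that array. COPZ1 read 10.49 in adult RFH replicate 2 and 10.26 to 10.29 in the others. BET1L read 7.61 in adult RFH replicate 4 against 7.45 to 7.47. GORASP2 read 11.05 in adult RFH replicate 3 against 11.24 to 11.27.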

How the results depend on the processing

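From juvenile to adult RFH, 10 members rose and 7 fell. The 10 fits that each left out 1 array gave 5 to 12 rises and 1 to 8 falls, and 12 to 31 calls among the other traffic genes, where the full set gave 23. With a change of at least 2-fold also asked for, 1 member rose and 0 fell, and 1 other traffic gene was called. Falls numbered 12 after quantile normalization, 12 with the 3' to 5' covariate, 11 with a floor of 4 and 2 with only the compared groups, which called 12 other traffic genes. Without adult RFH arrays 1 and 2, 4 members fell. Without adult RFH arrays 3 and 4, 21 rose, 12 fell and 36 other traffic genes were called. Of all genes, 32.5% were called in that fit, 15.9% without adult arrays 1 and 2 and 11.2% with only the compared groups. Quantile normalization called 20.1% of all genes, the 3' to 5' covariate 22.8%, the floor 17.4% and the fold threshold 4.69%. The fits that each left out 1 array called 10.9% to 24.1%, where the full set called 19.3%. The cause of these shifts was not tested. The fits that leave arrays out or use only the compared groups also hold fewer samples, and the part of that was not tested either.

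Between juvenile RFH and WT, where 0 members were called, the fit of only these groups gave 5 higher and 2 lower members and 7 other traffic genes. Array weights gave 4, 2 and 13. Of all genes these fits called 4.82% and 5.87%. The covariate gave 1 higher member, with 0.296% of all genes called. Without adult RFH arrays 1 and 2 there were 2 higher members and 5 other genes, and 2.68% of all genes were called. Without arrays 3 and 4 there were 1 higher, 1 lower and 4, and 1.94% of all genes were called. With single arrays left out there were 0 member calls and 0 to 1 other genes. Averaging each gene's probe sets gave 0 for VPS52 and -0.09 for VPS72 in place of -0.03 and 0.19, and VAMP8 had -0.05 from juvenile to adult RFH without adult arrays 1 and 2. With the replicate number as a block, 10 members rose and 5 fell from juvenile to adult RFH, 13 of them shared with the unblocked fit. There the blocked fit called 17 other traffic genes and 18.2% of all genes. Between the juvenile groups it called 0 members. Array number and signal limit the precision, and 14 members lay below the median of all probe sets.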
